A study of Arabidopsis thaliana with 12 samples.

Results

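Fatty acid synthesis and triacylglycerol assembly were followed through 41 Arabidopsis thaliana genes, taken from a list by their gene identifiers, out of 27432 protein-coding genes to which assembled transcripts were assigned. The list holds the transcription factor WRI1, plastid pyruvate kinase and pyruvate dehydrogenase, acetyl-CoA carboxylase, fatty acid synthase, acyl carrier proteins, thioesterases, desaturases, an elongation pair and the enzymes that assemble oil. Of the 41 genes, 34 had a symbol in the annotation used, and the other 7 are called by their locus identifiers, with no role given.

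RNA was sequenced from whole seedlings, 14 days old, of 4 genotypes with 3 libraries each: the val1 val2 double mutant, the val1 and val2 single mutants, and the wild type (WT). VAL1 and VAL2 encode related B3-domain repressors of transcription that act on seed genes after germination. The alleles and the accession are not given in the sources used here, and the labels name no treatment beyond the plates with 1% sucrose on which all seedlings grew. Levels are in FPKM, a fragment count divided by the length of the transcript and by the size of its library, so they can be compared between genes and are relative to the total of each library.

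In plants, fatty acids are built in the plastid. Pyruvate is turned into acetyl-CoA and then malonyl-CoA, and the growing chain is carried by acyl carrier protein until a thioesterase releases it. At the endoplasmic reticulum the chains are desaturated, elongated and joined to glycerol. In maturing seeds WRI1 activates much of the plastid part, and the product is stored as oil, whereas in leaves the same plastid pathway mainly serves membrane lipids.

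The libraries held 19164 to 20293 assembled loci each, with a median of 205 to 314 fragments per locus implied by the widths of the deposited confidence intervals, an approximate depth. The mutated genes did not follow every label. On chromosome 2, a VAL1 locus began at position 12982816 in val1 val2 replicates 1 and 2 and val1 replicates 2 and 3, but VAL1 was unbroken in val1 val2 replicate 3 (24.3 FPKM) and val1 replicate 1 (13.7 FPKM). VAL1 was also assembled in 2 pieces in val2 replicate 1, a library not labelled val1, with a gap after position 12984148. The VAL2 locus on chromosome 4 was shortened in val1 val2 replicate 1 and val2 replicate 3, in 2 pieces in val2 replicate 2, and unbroken in val1 val2 replicates 2 and 3 and val2 replicate 1. As listed, like the 24.3 and 13.7 FPKM above, VAL1 loci had 26.6, 22.3 and 24.3 FPKM in val1 val2 and 15.3, 18.3 and 18.1 in WT. Gene levels are instead the FPKM of a locus times the share of the gene it covers. On that scale VAL1 averaged 15.6 ± 6.11 FPKM in val1 val2, 7.65 ± 4.38 in val1, 16.5 ± 1.29 in val2 and 16.5 ± 1.78 in WT (SD, n = 3 each). VAL2 averaged 12.8 ± 0.307 FPKM in val1 val2, 13.6 ± 2.21 in val1, 10.5 ± 0.791 in val2 and 20.5 ± 2.45 in WT. The positions of the lesions are not given in the sources used here, so counts are also given without the libraries with unbroken loci.

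In val1 val2 seedlings most of the oil synthesis genes stood above WT. Of the 40 that could be tested, 25 rose, 3 fell and 12 did not pass (limma on log2(FPKM + 1), Benjamini-Hochberg adjusted p under 0.05 over 17898 genes). The shift in this genotype was broad: 58.8% of all genes tested were called, 24.5% higher and 34.3% lower (4391 and 6135 genes, against 5293 and 5138 after scaling by median ratios). Among the oil synthesis genes the shares were 62.5% higher and 7.5% lower. Their median log2 change was 0.80, against -0.14 over all genes tested. Rises of at least 2-fold were seen in 14 of the 40, and a fall of at least 2-fold in 1, against 14.7% and 16.8% of all genes.

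The fatty acid elongation gene FAE1, the acyl carrier protein gene ACP5, AT3G44830 and AT5G16460 had no assembled locus in any of the 9 libraries of val1, val2 and WT. These 4 genes passed the filter on low values only through the double mutant and so had to differ. Over the other 36 tested genes 21 rose and 3 fell (58.3% and 8.33%), with a median log2 change of 0.67. Of these 36 genes, 10 rose and 1 fell by at least 2-fold. Without val1 val2 replicate 3 and val1 replicate 1 the test called 22 genes higher and 3 lower. Over all 16516 genes tested there, 3659 were called higher and 6441 lower. Without val1 val2 replicates 2 and 3 and val2 replicate 1 the double mutant was 1 library, assumed to vary like the other genotypes, so its counts are not given. In both cases the genes listed in the double mutant alone no longer passed the filter. Without val1 val2 replicate 3 and val1 replicate 1, 6 genes of the set were not tested. The 3 values of each genotype did not overlap for 27 of 39 genes with complete values (69.2%), 24 higher and 3 lower, against 64% of all genes. These 39 include the 4 genes with no locus outside the double mutant, whose values could not overlap. This count is therefore not read as an excess over all genes. In whole seedlings, fewer cells of a type and less RNA per cell cannot be told apart.

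**Figure D1:**
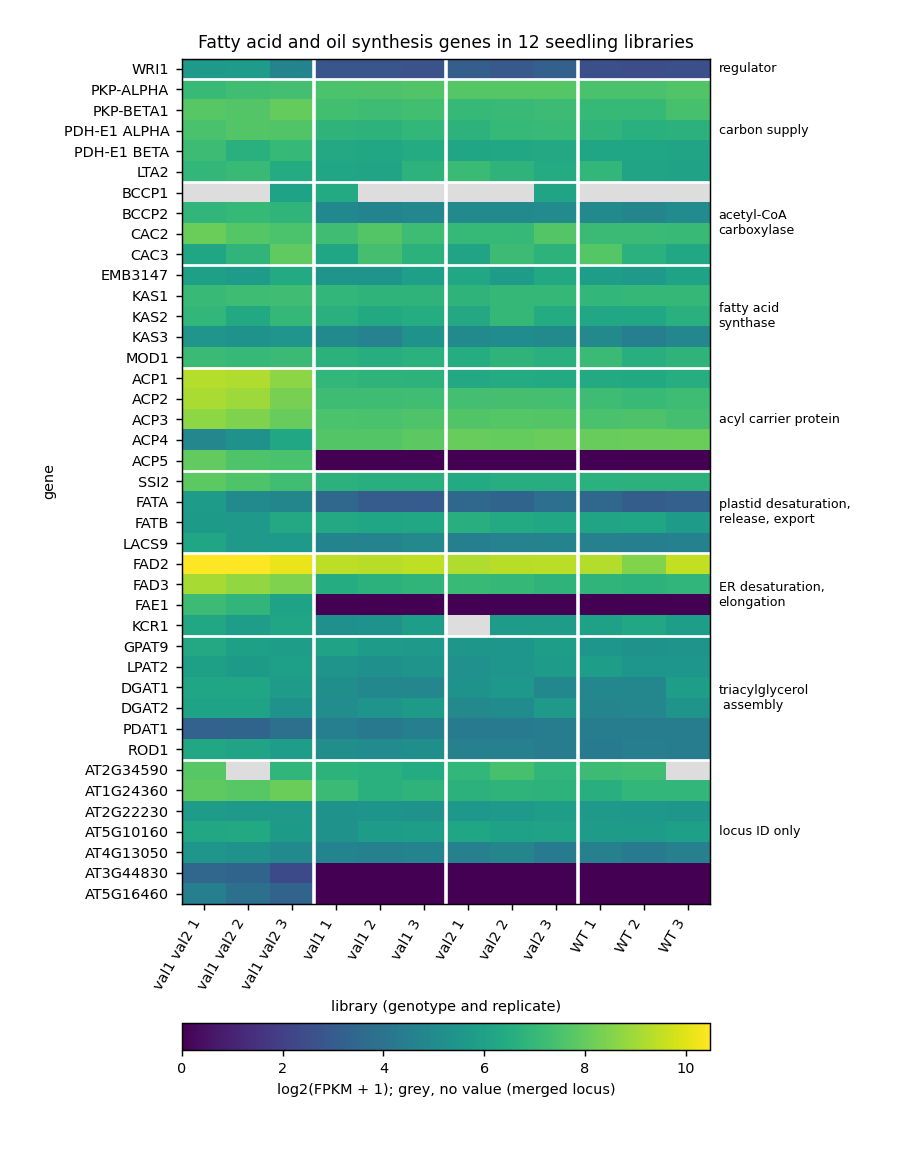
Level of the 41 genes as log2(FPKM + 1) in the 12 libraries, with genotypes from left to right and genes grouped by role from top to bottom. Grey cells have no value because the locus was merged with a neighbour. ACP5, FAE1, AT3G44830 and AT5G16460 are at 0 in 9 libraries, and ACP4 is the gene whose level is visibly lower in the 3 double mutant libraries.

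WRI1, the regulator of the set, is the AP2-type transcription factor that activates glycolytic and fatty acid synthesis genes in seeds. Its locus lies on chromosome 3 (TAIR10, median bounds 20114654 to 20118639). It stood at 49.8, 52.5 and 25.4 FPKM in the val1 val2 libraries, at 5.91, 6.04 and 5.44 in val1, at 8.03, 6.56 and 8.20 in val2, and at 4.98, 4.53 and 4.94 in WT. All double mutant values lay above all others, and replicate 3 was the lowest of them. The log2 change in val1 val2 against WT was 2.84 (SE 0.226, limma adjusted p = 2.25e-06), a 7.15-fold rise on the FPKM + 1 scale. The 3 values of val2 also lay above those of WT, but that difference did not pass (log2 change 0.56, limma adjusted p = 0.217).

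Genes that supply carbon to the plastid pathway moved less. PKP-BETA1, a subunit of plastid pyruvate kinase, rose by 0.65 (log2, limma adjusted p = 0.00168), with 206 to 255 FPKM in val1 val2 and 129 to 172 in WT. PDH-E1 ALPHA and PDH-E1 BETA, subunits of plastid pyruvate dehydrogenase, rose by 0.84 and 0.80 (limma adjusted p = 0.00013 and 0.000374). The partner subunit PKP-ALPHA fell by 0.28, to 138 to 161 FPKM in val1 val2 against 178 to 195 in WT (limma adjusted p = 0.0268). That call was lost under 5 alternatives (adjusted p up to 0.308), among them a scaling by median ratios and leaving out WT replicate 3 or val1 val2 replicate 1 or 2. The ratio of PKP-BETA1 to PKP-ALPHA was 1.49 ± 0.133 in val1 val2, 0.823 ± 0.0466 in val1, 0.652 ± 0.03 in val2 and 0.778 ± 0.0895 in WT. The ratio in each double mutant library lay above that in each of the other 9. LTA2, the acetyltransferase of the same dehydrogenase, did not pass (log2 change 0.45, adjusted p = 0.208).

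Acetyl-CoA carboxylase commits carbon to fatty acids. BCCP2, one of the biotin carrier subunits, had 120, 129 and 114 FPKM in val1 val2, 28.5, 25.5 and 27.6 in val1, 31.7, 31.0 and 32.3 in val2, and 29.3, 26.2 and 31.9 in WT. The double mutant stood apart with little spread, and both single mutants overlapped with WT. The log2 change against WT was 2.02 (SE 0.0994, limma adjusted p = 5.26e-08). CAC2, the biotin carboxylase subunit, rose by 0.66 (limma adjusted p = 0.0167), a call lost without val1 val2 replicate 1 (0.0671). CAC3, a carboxyltransferase subunit, ranged from 71.1 to 240 FPKM within val1 val2 and from 76.2 to 212 within WT and did not pass (limma adjusted p = 0.906). BCCP1, the other biotin carrier gene, shared its locus with a neighbour in most libraries and could not be tested. It had 66.7 FPKM in val1 val2 replicate 3, 83.5 in val1 replicate 1 and 67.7 in val2 replicate 3.

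The 5 genes of fatty acid synthase with a symbol had the smallest median log2 change of the roles, at 0.25. The 7 genes given by locus identifier were assigned no role and do not enter this median. KAS3, which starts the chain, rose by 0.68 (log2, limma adjusted p = 0.00555), with 40.7 to 43.5 FPKM in val1 val2 and 22.0 to 29.7 in WT. KAS1 and KAS2, which lengthen it, the malonyl transferase EMB3147 and the enoyl reductase MOD1 had log2 changes of 0.23, 0.38, 0.19 and 0.25, of which none passed (limma adjusted p from 0.0598 to 0.484). KAS1, the closest of them to the threshold, had 134 to 153 FPKM in val1 val2 and 123 to 124 in WT, with no overlap.

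The acyl carrier protein genes changed in opposite directions. These small plastid proteins hold the chain while it is built. Of the 5 genes 4 rose and 1 fell (80% and 20%), against 24.5% and 34.3% of all genes. ACP5 passed the filter on low values only through the double mutant and so had to differ. Of the others, ACP1, ACP2 and ACP3 rose and ACP4 fell. ACP1 (chromosome 3, 1391682 to 1392953) stood at 635, 598 and 399 FPKM in val1 val2, 123, 112 and 110 in val1, 80.0, 85.3 and 83.8 in val2, and 83.4, 82.4 and 90.2 in WT. Its log2 change in the double mutant was 2.63 (SE 0.157, limma adjusted p = 2.46e-07). When each gene took the FPKM of its largest locus as listed, this change was 0.79 and did not pass (adjusted p = 0.622).

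ACP2 had 575, 496 and 322 FPKM in val1 val2, 149, 149 and 153 in val1, 164, 165 and 163 in val2, and 150, 133 and 150 in WT (log2 change 1.64, limma adjusted p = 2.17e-05). ACP3 followed at 265 to 416 FPKM in val1 val2 and 161 to 186 in WT (0.96, limma adjusted p = 0.000274). ACP2 and ACP3 are close relatives on chromosome 1, between which the assembly could share fragments, so the division between them is uncertain. ACP5 (chromosome 5, 9571071 to 9572131) had 248, 195 and 175 FPKM in the double mutant and was listed at 0 in the other 9 libraries. Its locus also reached the neighbouring gene AT5G27210.

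ACP4 ran the other way. It stood at 27.6, 40.2 and 76.7 FPKM in val1 val2, 205, 201 and 231 in val1, 266, 259 and 272 in val2, and 266, 271 and 277 in WT. The double mutant values lay far below all others, with replicate 3 the highest of them, and the val1 values lay below those of val2 and WT. The log2 change in val1 val2 against WT was -2.60 (SE 0.275, limma adjusted p = 1.82e-05), and in val1 against WT -0.35 (adjusted p = 0.576). ACP4 made up 1.45, 2.39 and 6.20% of the summed FPKM of the 5 genes in the val1 val2 libraries, against 39.5, 40.3 and 40.9% in WT. ACP1 made up 33.7 ± 1.71% of the sum in val1 val2, 17.4 ± 1.32% in val1, 11.6 ± 0.255% in val2 and 12.6 ± 0.567% in WT (SD, n = 3 each). The most abundant gene of the family was thus ACP1 in the double mutant and ACP4 in the other genotypes, by mean share.

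**Figure D2:**
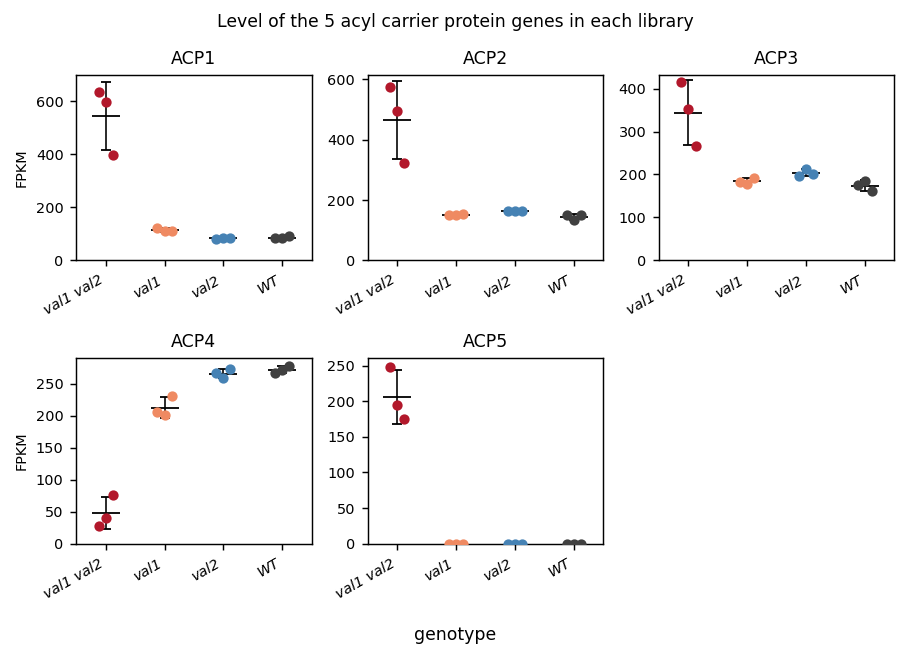
FPKM of the 5 acyl carrier protein genes in each library by genotype, with the mean and SD as a dash and bar where the level is above 0. ACP1, ACP2, ACP3 and ACP5 are higher in all 3 double mutant libraries than in any other library, and ACP4 is lower in all 3.

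Of the genes for the release, activation and first desaturation of fatty acids, FATA, LACS9 and SSI2 rose and FATB did not pass. FATA, a thioesterase that mainly releases oleate, had 53.3, 31.5 and 26.8 FPKM in val1 val2, 10.2, 7.33 and 7.27 in val1, 10.2, 9.31 and 13.1 in val2, and 10.2, 7.44 and 8.32 in WT. Its log2 change was 1.93 (SE 0.242, limma adjusted p = 6.04e-05). FATB, the thioesterase that prefers saturated chains, had 50.2 to 78.5 FPKM in val1 val2 and 53.1 to 69.7 in WT and did not pass (log2 change -0.11, adjusted p = 0.629). The ratio of FATA to FATB was 1.05, 0.628 and 0.341 in the double mutant libraries, against 0.149, 0.107 and 0.157 in WT.

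LACS9, an acyl-CoA synthetase of the plastid envelope, had 73.3, 49.3 and 48.7 FPKM in val1 val2, 25.7, 25.1 and 29.2 in val1, 22.1, 24.2 and 25.1 in val2, and 23.0, 22.0 and 23.7 in WT (log2 change 1.26, limma adjusted p = 4.23e-05). SSI2, the main stearoyl desaturase of vegetative tissue, rose by 0.83 (limma adjusted p = 0.000302), with 153 to 225 FPKM in val1 val2 and 103 to 107 in WT. For FATA, LACS9 and SSI2 the double mutant overlapped with no other genotype.

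At the endoplasmic reticulum, FAD2 desaturates oleate and FAD3 the linoleate that FAD2 makes. FAD2 was the most abundant gene of the set by mean FPKM in each genotype, with 1428, 1394 and 1152 in val1 val2, 689, 655 and 712 in val1, 593, 655 and 681 in val2, and 624, 361 and 723 in WT. Its log2 change in val1 val2 was 1.27 (SE 0.222, limma adjusted p = 0.000595), with WT replicate 2 the lowest of the 12 libraries. FAD3 had 553, 438 and 347 FPKM in val1 val2, 88.9, 106 and 116 in val1, 131, 125 and 112 in val2, and 114, 109 and 119 in WT (log2 change 1.94, limma adjusted p = 3.75e-06). Both genes stood above every other library in all 3 double mutant libraries.

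FAE1, the condensing enzyme that elongates oleate in seeds, is on chromosome 4 (16494102 to 16495796). It had 146, 119 and 66.7 FPKM in val1 val2 and was listed at 0 in all 9 other libraries. KCR1, the ketoacyl reductase of the same elongase, which also serves wax and sphingolipid synthesis, had 57.8 to 73.8 FPKM in val1 val2 and 55.3 to 76.2 in WT and did not pass (log2 change 0.06, limma adjusted p = 0.808). The elongation pair thus differed: one gene was listed in the double mutant alone and the other was listed in every genotype.

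The plastid has its own desaturases for membrane lipids, and they are set beside FAD2 and FAD3 here. FAD7 and FAD8 are the plastid counterparts of FAD3. FAD7 had 27.1, 36.6 and 69.0 FPKM in val1 val2 and 148, 254 and 146 in WT, and fell by 2.08 on the log2 scale (limma adjusted p = 0.000167). FAD8 had 2.42, 4.39 and 6.59 FPKM in val1 val2 and 28.0, 24.8 and 17.2 in WT, a 4.60-fold fall on the FPKM + 1 scale (limma adjusted p = 5.98e-05). In both genes the double mutant lay below WT without overlap. FAD6, the counterpart of FAD2, was named after its values were seen and fell by 1.30 (limma adjusted p = 0.000409). The ratio of FAD3 to summed FAD7 and FAD8 was 18.8, 10.7 and 4.60 in the double mutant libraries, against 0.649, 0.390 and 0.727 in WT. The ratio of FAD2 to FAD6 was 21.1, 14.0 and 9.27 in val1 val2, against 3.11, 1.63 and 2.50 in WT. In both ratios replicate 3 was the lowest double mutant library and still above every WT library.

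**Figure D3:**
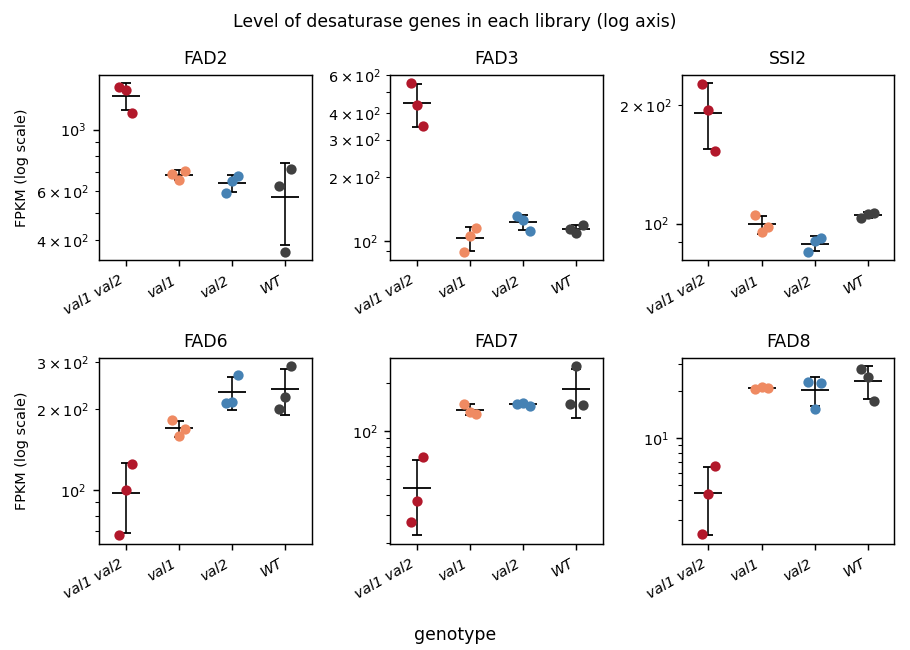
FPKM on a log axis of the endoplasmic reticulum desaturases FAD2 and FAD3, the stearoyl desaturase SSI2 and the plastid desaturases FAD6, FAD7 and FAD8, per library and genotype, with mean and SD. FAD2, FAD3 and SSI2 are higher in the 3 double mutant libraries than in any other library, while FAD6, FAD7 and FAD8 are lower.

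In triacylglycerol assembly 4 of 6 genes with a symbol rose and 1 fell (66.7% and 16.7%), against 24.5% and 34.3% of all genes. Genes given by locus identifier were assigned no role and enter neither this count nor the ratios of assembly genes. ROD1 exchanges phosphocholine between phosphatidylcholine and diacylglycerol, which moves desaturated chains toward oil. It is on chromosome 3 (5350971 to 5353714) and had 74.0, 69.1 and 58.4 FPKM in val1 val2, 35.2, 32.2 and 36.4 in val1, 22.7, 22.6 and 21.0 in val2, and 18.7, 21.1 and 19.9 in WT. The double mutant was highest, val1 lay between it and the other genotypes without overlap, and val2 overlapped with WT. The log2 change against WT was 1.70 in val1 val2 (SE 0.108, limma adjusted p = 3.95e-07), 0.77 in val1 (adjusted p = 0.00254) and 0.14 in val2 (adjusted p = 0.556).

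DGAT1 and DGAT2, which add the last chain from acyl-CoA, rose by 0.85 and 0.82 (limma adjusted p = 0.0224 and 0.023), but their ranges overlapped with WT. DGAT1 had 54.9 to 71.4 FPKM in val1 val2 and 27.5 to 58.3 in WT, and its call was lost without WT replicate 1 or 2, without val1 val2 replicate 1 or 2, and under 2 other alternatives (adjusted p up to 0.103). The call of DGAT2 was lost without the same 4 libraries, each left out singly (up to 0.084). GPAT9, which adds the first chain to glycerol, rose by 0.60 (limma adjusted p = 0.00714), and LPAT2, which adds the next, did not pass (0.25, adjusted p = 0.166).

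PDAT1, which takes the last chain from a phospholipid instead, fell by 0.90 (SE 0.148, limma adjusted p = 0.000412). Its range was 8.90 to 13.6 FPKM in val1 val2 and 20.0 to 20.7 in WT. The ratio of DGAT1 to PDAT1 was 7.94, 7.50 and 4.04 in val1 val2, against 1.34, 1.37 and 2.92 in WT, without overlap.

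**Figure D4:**
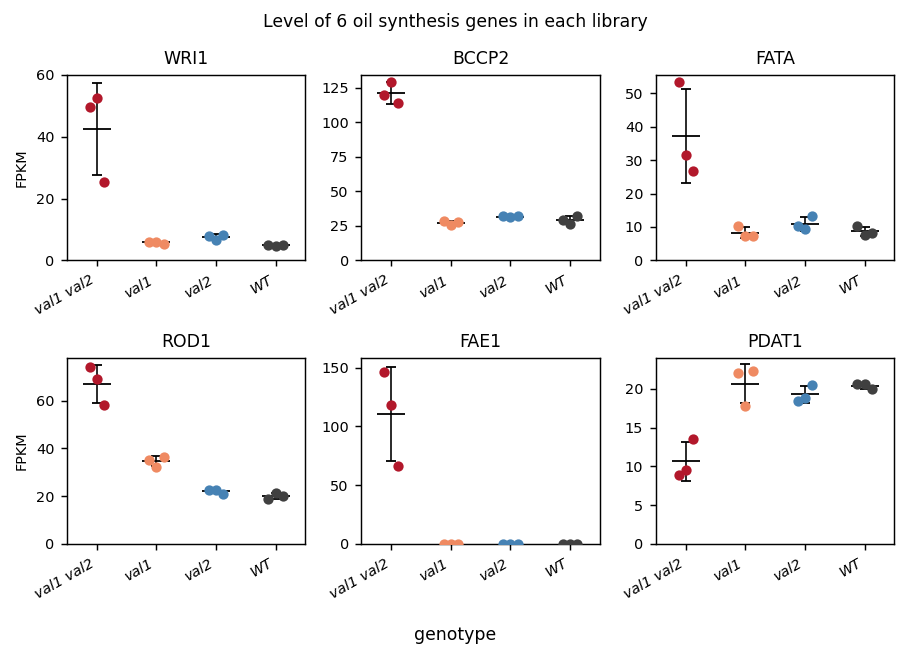
FPKM of WRI1, BCCP2, FATA, ROD1, FAE1 and PDAT1 in each library by genotype, with the mean and SD as a dash and bar where the level is above 0. The 3 double mutant libraries lie apart from WT in all 6 panels, below it for PDAT1, and the 3 val1 libraries lie between the double mutant and WT for ROD1.

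Among the 7 genes given by locus identifier 4 rose and none fell (57.1% and 0%), against 24.5% and 34.3% of all genes. Of these 4, AT5G16460 and AT3G44830 passed the filter on low values only through the double mutant and so had to differ. AT1G24360 had 233, 217 and 279 FPKM in val1 val2, 142, 101 and 110 in val1, 106, 111 and 110 in val2, and 94.7, 121 and 121 in WT (log2 change 1.11, limma adjusted p = 0.000129). AT5G16460 had 22.2, 13.7 and 9.20 FPKM and AT3G44830 had 9.96, 9.29 and 4.15 FPKM in the double mutant libraries, and both were listed at 0 in the other 9. AT4G13050 rose by 0.81 (limma adjusted p = 0.00111). AT2G34590, AT2G22230 and AT5G10160 had log2 changes of 0.12, 0.09 and 0.30 and did not pass (limma adjusted p from 0.152 to 0.747).

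The double mutant libraries were uneven in the same order across most of these genes. Of the 25 genes that rose, replicate 3 was the lowest of the 3 libraries for 20, and replicate 1 the highest for 18. For the 3 genes that fell, replicate 3 was the highest each time. The order was not counted over all genes, so it is not shown to be particular to this set. Replicate 3 is also the double mutant library with an unbroken VAL1 locus. Markers of other tissues also changed in val1 val2 against WT, to be read against 24.5% higher and 34.3% lower among all genes. Of 12 seed reserve genes, 10 could be tested and all 10 rose. Their summed level was 52124 to 124960 FPKM in val1 val2, where replicate 1 lacks values for several of them, 111 to 125 in val1, 13.8 to 18.3 in val2 and 0 in WT. The globulin gene CRA1, for one, had 9320, 9000 and 6237 FPKM in the double mutant libraries, lowest in replicate 3. The steroleosin gene HSD1 was listed at 0 in every library.

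Of 10 green tissue markers 8 fell and 1 rose, and their sum was 3001, 4614 and 9459 FPKM in val1 val2 replicates 1, 2 and 3, against 17755 to 20614 in WT, where replicate 1 lacks the value of 1 marker. All 5 root markers fell, with sums of 17.3 to 26.8 FPKM in val1 val2 and 67.0 to 74.5 in WT. In val2 against WT, 3 of the 5 fell as well, against 2.67% of all genes, with sums of 30.1 to 39.7 FPKM in val2. Of 6 genes often used as references, ACT2 and PP2AA3 fell by 2.24 and 0.54 (limma adjusted p = 0.00013 and 0.015) and 4 did not pass. The part of these markers in the changes of the oil synthesis genes was not tested.

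**Figure D5:**
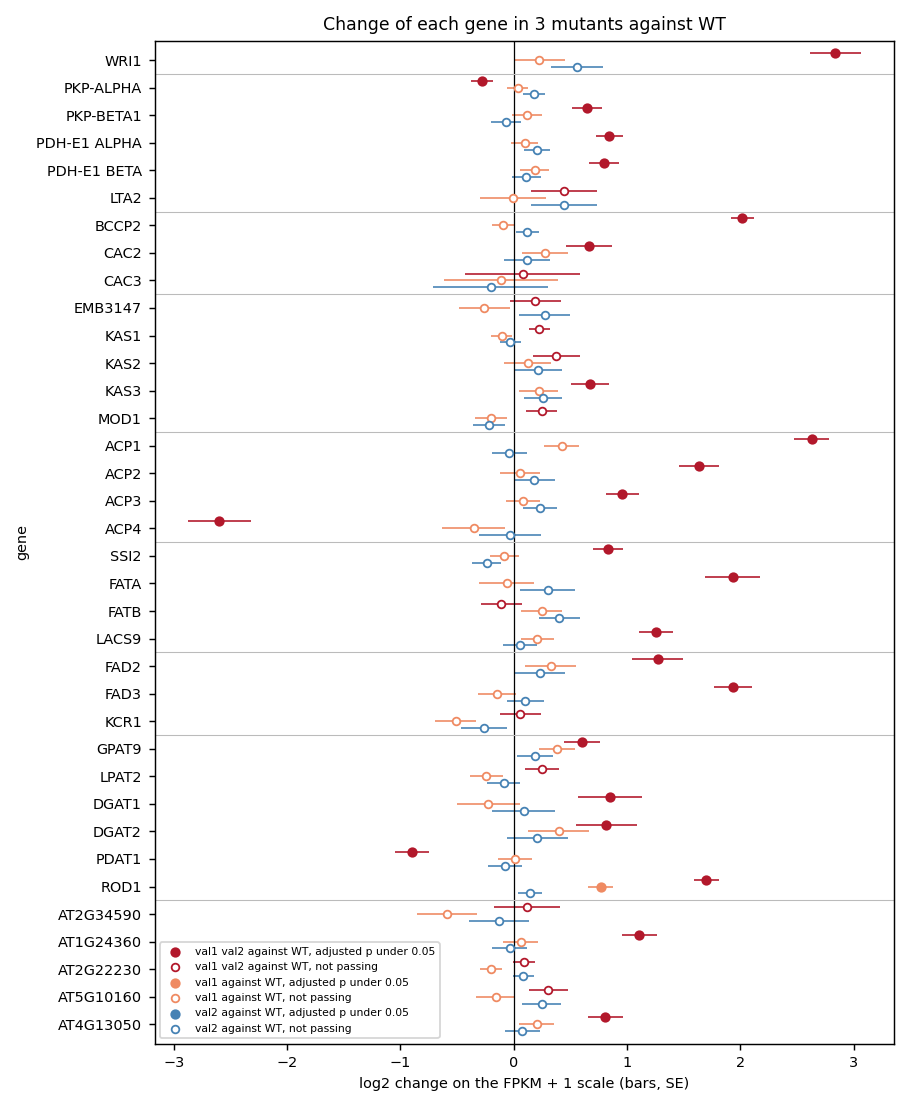
Log2 change with its SE, on the FPKM + 1 scale, of the 36 tested genes with a locus outside the double mutant, for val1 val2, val1 and val2 against WT. Filled points passed an adjusted p of 0.05. In val1 only ROD1 is filled and in val2 no gene is, whereas in val1 val2 24 of 36 are.

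Few of these genes were called in the single mutants. In val1, 1 of 40 genes was called by limma, ROD1, against 3.92% of all genes tested (2.17% higher and 1.75% lower). At an unadjusted p under 0.05 there were 4, but the share of all genes at that threshold was not computed. These 4 are therefore not read as an excess. The ROD1 change in val1 passed under all 26 alternatives, with log2 changes from 0.67 to 0.82 and adjusted p up to 0.0166. ACP1 had a log2 change of 0.42 in val1 and did not pass (limma adjusted p = 0.192), with its 3 values above those of WT. KCR1 and GPAT9 had log2 changes of -0.51 and 0.38 (limma adjusted p = 0.178 and 0.237). The 3 values of val1 and WT did not overlap for 13 of 39 genes (33.3%), 9 higher and 4 lower, against 31.1% of all genes.

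In val2, limma called 0 of 40 genes, against 4.46% of all genes tested (1.79% higher and 2.67% lower). Only 1 gene, WRI1, had an unadjusted p under 0.05, again with no share of all genes computed at that threshold. The values did not overlap with WT for 10 of 38 genes (26.3%), against 32.9% of all genes. WRI1 had the smallest adjusted p of the set in val2 and passed under 5 of the 26 alternatives, among them library weights (adjusted p = 0.0155) and leaving out val1 val2 replicate 3 (0.00771). ACP1 passed in val1 under 4 alternatives, library weights among them. Library weights called 2279 genes over all in val2 and 1860 in val1, against 799 and 702 as reported. Without val1 val2 replicate 3 these counts over all genes were 1578 and 1246.

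Set against each single mutant, which share the double mutant libraries with the comparison above, the double mutant showed the same kind of counts. Against val1, 32 of 40 genes were called, 29 higher and 3 lower (25 and 3 of the 36 with a locus outside the double mutant), where 58.1% of all genes were called, 25.6% higher and 32.5% lower. Against val2, 29 were called, 25 higher and 4 lower (21 and 4 of the 36), where 59.7% of all genes were called, 25% higher and 34.8% lower. WRI1 had log2 changes of 2.61 against val1 and 2.28 against val2 (limma adjusted p = 4.52e-06 and 9.93e-06). ROD1 had 0.93 and 1.56 (3.83e-05 and 7.11e-07), the smaller of them against val1.

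The interaction is what remains of the log2 change of val1 val2 after the log2 changes of val1 and of val2 are subtracted. It was called for 26 of 40 genes, 22 higher and 4 lower, and for 18 higher and 4 lower of the 36 genes with a locus outside the double mutant. Over all genes 46.6% were called, 21.3% higher and 25.3% lower. Without val1 val2 replicate 3 and val1 replicate 1 the count was 17. There 6 of the 41 genes were not tested, among them the 4 listed in the double mutant alone. Over all genes 8125 of 16516 were called there, 3206 higher and 4919 lower, a share near that of the oil synthesis genes. With all libraries the interaction was 2.05 for WRI1 (SE 0.32, limma adjusted p = 0.000474), 1.99 for BCCP2 (2.03e-06), 1.98 for FAD3 (7.55e-05), 2.25 for ACP1 (2.25e-05) and -2.21 for ACP4 (0.000999). With the FPKM of the largest locus that of ACP1 was 0.42 and did not pass (adjusted p = 0.872). For ROD1 it was 0.79 (SE 0.153, limma adjusted p = 0.00181), so the rise in val1 val2 was larger than the summed changes of val1 and val2. FAD2 and DGAT1 did not pass (0.71 and 0.98, limma adjusted p = 0.0857 and 0.0625). FATB passed with -0.76 (limma adjusted p = 0.0331), a call lost under 9 of 25 alternatives (up to 0.0827), with means of 59.8 FPKM in val1 val2, 75.3 in val1, 84.3 in val2 and 63.7 in WT.

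The neighbouring lipid genes were counted from further lists, to be read against the 24.5% higher and 34.3% lower among all genes. Of 16 other plastid fatty acid synthesis genes 14 could be tested, and 8 rose and 1 fell in val1 val2 against WT (57.1% and 7.14%). The largest change was that of SAD6, a stearoyl desaturase related to SSI2, with 652, 622 and 358 FPKM in val1 val2 and 15.1, 17.2 and 12.2 in WT (log2 change 5.07, limma adjusted p = 1.93e-05). The ratio of SSI2 to SAD6 was 0.361 ± 0.0586 in val1 val2 and 7.23 ± 1.31 in WT (SD, n = 3 each). AT3G02630, AT5G16240 and AT5G16230 rose by 2.17, 1.96 and 1.14 (limma adjusted p from 1.52e-06 to 0.0268). Of 11 plastid membrane lipid genes 8 could be tested, and 2 rose (25%, near the share of all genes) and 5 fell (62.5%), among them ATS1, the plastid glycerol-3-phosphate acyltransferase, by 1.61 (3.52e-05). SQD1, which makes the sulfolipid precursor, rose by 1.34 (1.49e-05).

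Of 15 other genes of the endoplasmic reticulum and lipid droplets 12 could be tested, and 5 rose and 3 fell (41.7% and 25%), with a median log2 change of 0.20. PAH1, a phosphatidate phosphatase, rose by 2.36 (limma adjusted p = 2.24e-07), AT1G67360 by 2.96 and AT2G47780 by 5.48, and DGAT3, a soluble acyltransferase, fell by 2.14 (0.000183). The ratio of DGAT1 to DGAT3 was 1.21, 1.49 and 0.396 in the double mutant libraries, against 0.0842, 0.0916 and 0.171 in WT. Of 17 genes of oil breakdown 9 rose and 2 fell (52.9% and 11.8%). ICL, the isocitrate lyase of the glyoxylate cycle, had 1222, 1335 and 834 FPKM in val1 val2 and 0.544, 0.488 and 0.288 in WT (log2 change 9.59, limma adjusted p = 5.9e-11). MLS, the malate synthase of the same cycle, rose by 5.72, the lipase gene SDP1L by 2.12 and the beta-oxidation gene MFP2 by 1.69. The lipase gene SDP1, named after its values were seen, went the other way. It had 10.1 to 13.2 FPKM in val1 val2 and 19.4 to 24.0 in WT, without overlap.

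Of 7 genes of sugar and carbon import 5 rose and 1 fell. GPT2, a plastid glucose-6-phosphate transporter, had 321, 284 and 109 FPKM in val1 val2, and in WT 0.578 FPKM in replicate 2 with no locus in the others. It passed the filter on low values only through the double mutant, and of the other 6 genes 4 rose and 1 fell. The sucrose synthase genes SUS2 and SUS3 rose by 5.02 and 3.46 and the plastid enolase gene ENO1 by 3.08 (limma adjusted p from 3.84e-09 to 6.65e-07). Of 7 regulators of seed oil 5 could be tested, of which 3 passed the filter only through the double mutant and so had to differ, and of the other 2 none rose and 1 fell. FUS3, ABI3 and LEC1, activators of seed maturation, are those 3 and had 66.8 to 89.9, 29.3 to 44.6 and 14.2 to 18.7 FPKM in val1 val2 and were listed at 0 in the other 9 libraries. WRI4, a relative of WRI1 known from cuticular wax synthesis, fell by 4.19 (limma adjusted p = 3.34e-05), the opposite direction to WRI1.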

How the data were processed

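RNA-seq was analysed in 12 libraries. The deposited values were FPKM per assembled locus with interval bounds in FPKM, made by the authors with Cufflinks, per the file headers. The submitters' processing notes list Cufflinks 2.2.1 and TopHat2 2.1.1 beside MACS2 and Cuffdiff, with no roles, and give the build as TAIR10. The loci carry no gene names and were assigned by position to 27432 protein-coding genes of a RefSeq table (TAIR10.1), an assembly named otherwise than the build of the files. Median loci began 81 to 94 bases inside annotated starts. A gene's value was the sum of the FPKM of its loci times the share of the gene covered. Genes in a locus merged with a neighbour were left missing, as were 218 values of 191 genes that had no locus while each of the other replicates stood at 10 FPKM or more. A gene with no locus was entered as 0. Strand is not given in the sources used here, so overlapping genes and close relatives remain uncertain.

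Tests used limma 3.58.1 under R 4.3.3 with log2(FPKM + 1) as the response, a mean for each of the 4 genotypes and a mean-dependent prior. The fit held 17898 genes with at least 1 FPKM in at least 3 libraries and 2 values per group, was checked on simulated data, and used two-sided tests called at an adjusted p under 0.05. Changes are on the FPKM + 1 scale and understate those of low genes. Titles gave the groups, and for val1 replicates 2 and 3 the files are named differently from the titles. Summaries used Python 3.11.15, numpy 2.4.6, pandas 2.3.3 and matplotlib 3.10.9. Genes and lists were chosen with earlier results of these data known. Per-library values are given for WRI1 and for genes called in val1 val2 against WT with a log2 change of at least 1. They are also given for genes called in a single mutant. At most 4 genes per further list are named, by largest called change, apart from FAD6 and SDP1. Alternatives numbered 24, and 2 more were added after seeing the data.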

Additional observations from a re-analysis of the deposited data

How the results depend on the processing

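No log2 change of an oil synthesis gene called in a comparison reversed under the alternatives run. The count in val1 val2 against WT ranged from 21 to 32 over all 26 alternatives (28 as reported), where 8488 to 11881 of all genes tested were called. Scaling by median ratios gave the 32, 30 higher and 2 lower, and moved the median log2 change of all genes to 0.00, against -0.14 as reported. Leaving out 1 library gave 21 to 28 calls in val1 val2 against WT, 1 to 2 in val1 against WT, 0 to 1 in val2 against WT, 22 to 32 in val1 val2 against val1, 20 to 30 in val1 val2 against val2 and 18 to 24 for the interaction. Over all genes, 16750 to 17622 tested, the calls in the same order were 8488 to 10275, 382 to 1246, 305 to 1578, 8449 to 10183, 8660 to 10441 and 6574 to 8694. The spread is thus not particular to the oil synthesis genes. Without a double mutant library the 4 genes listed only there failed the filter of 3 libraries, which is part of the lower counts. Without the libraries with an unbroken VAL2 locus the double mutant was 1 library, assumed to vary like the others, so calls lost there, KAS3 in val1 val2 against WT among them (log2 change 0.71, adjusted p = 0.0589), say little.

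Over all genes, library weights called 1860 in val1 and 2279 in val2 against WT, and only the groups compared 953 and 1344. As reported these counts were 702 and 799. In val1 against WT, 2 genes of the set were called with library weights and with only the groups compared (ROD1 and ACP1). Without the libraries with an unbroken VAL2 locus, a set chosen after seeing the data, 3 were called there (ROD1, ACP1 and ACP4). In val2 against WT, 1 gene (WRI1) was called with library weights, with only the groups compared and without either set of libraries with unbroken loci. The interaction gave 17 calls, against 26, without the libraries with an unbroken VAL1 locus, where 8125 of 16516 genes were called over all. The 4 genes listed only in the double mutant, all called before, were not tested there, nor was AT2G34590. The share called was near that of all genes, and the cause of the other losses was not tested. The interaction has no value with only the groups compared.

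Same-numbered libraries did not deviate together: their correlations were -0.033 to 0.078 over 18 pairs, 0 of them over 0.1, and 6 of 12 libraries correlated best with their own number. With the replicate number as a block the calls were 28 in val1 val2 against WT, 1 in val1, 0 in val2, 32 against val1, 26 against val2 and 23 for the interaction. Over all 17898 genes they were 10380, 601, 605, 10253, 10568 and 8193 in the same order. The planned share of promoter motifs was not run, because no sequences were used here. The files give no counts, so no interval for low genes was computed.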
